A study of Homo sapiens with 6 samples.

Results

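The MAP kinase dual-specificity phosphatases are the 10 genes DUSP1, DUSP2, DUSP4, DUSP5, DUSP6, DUSP7, DUSP8, DUSP9, DUSP10 and DUSP16, taken by gene symbol from a table of 58735 genes. All 10 were found in it, and 9 had enough counts to be tested, DUSP2 being the exception. The libraries are poly(A) RNA of HepaRG, an established human hepatic progenitor line that was kept in 1.8% DMSO for 2 weeks to differentiate. Every culture received siRNA for 48 h and then 800 µM oleic acid with 400 µM palmitic acid for 24 h. 3 libraries are labelled PTPF and 3 STATF, names that the labels leave unexplained. The siRNAs of the study were directed at STAT3, at PTPRD, a receptor-type tyrosine phosphatase, or at both, and no library from control siRNA or from cells without fatty acids was analysed here. All values therefore compare 2 sets of fatty acid-loaded cells of a single line.

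MAP kinases (ERK, JNK and p38) are switched on when a threonine and a tyrosine in their activation loop are phosphorylated, and the phosphatases of this family remove both phosphates. Many of them are themselves induced by MAP kinase activity, so that they work as feedback brakes, and they differ in where they reside and which kinase they prefer. DUSP1, DUSP2, DUSP4 and DUSP5 are nuclear and encoded by inducible immediate early or delayed early genes, DUSP6, DUSP7 and DUSP9 are cytoplasmic and prefer ERK, and DUSP8, DUSP10 and DUSP16 prefer JNK and p38. In liver, DUSP1, DUSP6 and DUSP9 are known from work on glucose and lipid metabolism.

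Gene counts summed to 33225627 to 40796767 per library. STAT3 stood at 436, 437 and 457 CPM (counts scaled to a common library size, with TMM factors) in the libraries labelled PTPF and at 114, 132 and 113 CPM in those labelled STATF. Its log2 fold change, PTPF minus STATF, was 1.89 (SE 0.063, edgeR adjusted p = 2.47e-18). PTPRD stood at 10.04, 12.8 and 11.7 against 11.2, 12.2 and 11.1 CPM and did not separate the labels, so directions are given between libraries by label. Whether the replicates came from separate cultures is not said in the labels, so each p-value reflects library-to-library spread that may be purely technical. As background for the counts that follow, 21.6% of the 17844 genes tested had an edgeR adjusted p under 0.05, and 35.7% had groups that did not overlap in CPM.

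DUSP1 was by far the most abundant of the family, the only member above 100 TPM. Levels between genes were compared on this length-scaled measure, computed from the counts and the deposited gene length, as mean ± SD over all 6 libraries. DUSP1 was at 243 ± 28.4 TPM and made up 80.3% ± 1.60 of the summed level of the 10 genes (SD, n = 6), from 78.5% to 82.0%. DUSP9 followed at 18.7 ± 1.86 TPM, DUSP16 at 14.5 ± 1.04 and DUSP5 at 8.41 ± 0.680 (SD, n = 6 each). The ranges of these 4 genes did not overlap with their neighbour in the order, although DUSP9 and DUSP16 came close (the lowest DUSP9 value 16.3 TPM, the highest DUSP16 value 15.9). DUSP8 at 4.65 ± 0.235, DUSP7 at 4.38 ± 0.412, DUSP10 at 4.24 ± 0.769 and DUSP6 at 3.61 ± 0.680 TPM (SD, n = 6 each) formed a middle group whose neighbours overlapped. DUSP8 exceeded DUSP7 in 4 of 6 libraries and DUSP10 exceeded DUSP6 in 5. DUSP7 and DUSP10 were ordered by label, with DUSP7 the higher in all 3 PTPF-labelled libraries and DUSP10 in all 3 STATF-labelled ones. DUSP10 was at 3.61 ± 0.404 TPM under the PTPF label and at 4.86 ± 0.368 TPM under the STATF label, where its mean was above that of DUSP8 (4.74 ± 0.227, SD, n = 3 each). DUSP4 (0.489 ± 0.164 TPM) and DUSP2 (0.329 ± 0.183 TPM) were lowest (SD, n = 6 each), and their ranges overlapped. By class, the nuclear inducible genes, mainly DUSP1, held 81.5% to 82.6% of the summed level in PTPF-labelled and 84.4% to 84.8% in STATF-labelled libraries. The cytoplasmic ERK-preferring genes held 9.45% to 10.1% against 7.96% to 8.22%, and the JNK- and p38-preferring genes 7.85% to 9.01% against 6.95% to 7.60%. The labels did not overlap in the shares of any of the 3 classes, which are tied to each other because they sum to the whole. In summed TPM only the nuclear inducible genes separated, at 234, 214 and 237 against 288, 262 and 280. The cytoplasmic ERK-preferring genes overlapped (27.1, 24.8 and 29.2 against 27.0, 24.9 and 27.1 TPM). So did the JNK- and p38-preferring genes (22.2, 23.6 and 23.6 against 24.4, 23.6 and 22.9 TPM).

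**Figure D1:**
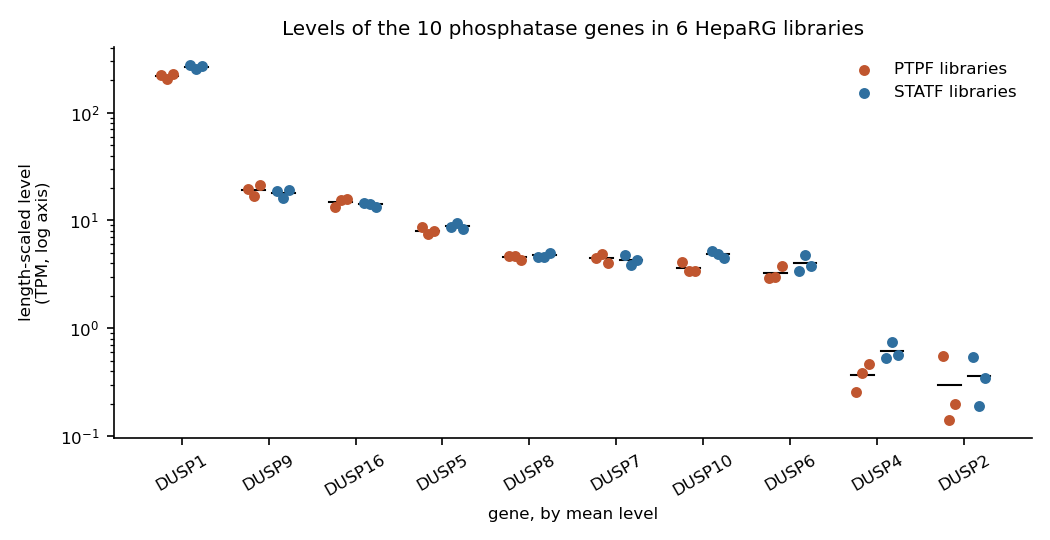
Length-scaled level (TPM, log axis) of each of the 10 genes, ordered by mean, in the 3 PTPF-labelled (orange) and 3 STATF-labelled (blue) libraries, with black lines at the group means. DUSP1 lies between 206 and 278 TPM in every library, and DUSP4 and DUSP2 lie below 1 TPM.

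Promoter windows are shown for 3 members, DUSP1 as the dominant gene, DUSP8 as the other member searched that had a cyclic AMP response element (CRE), and DUSP10 as a member with separated groups and none of the motifs searched. RefSeq windows (GRCh38.p14, 250 bases before to 50 after the annotated start) were matched by symbol for 8 of the 10 members, as 10 windows. They lie on the minus strand at chr5:172771146-172771445 for DUSP1, chr11:1572222-1572521 for DUSP8 and chr1:221742040-221742339 for DUSP10, and are written 5′ to 3′ with matches to the CRE in capitals.
DUSP1: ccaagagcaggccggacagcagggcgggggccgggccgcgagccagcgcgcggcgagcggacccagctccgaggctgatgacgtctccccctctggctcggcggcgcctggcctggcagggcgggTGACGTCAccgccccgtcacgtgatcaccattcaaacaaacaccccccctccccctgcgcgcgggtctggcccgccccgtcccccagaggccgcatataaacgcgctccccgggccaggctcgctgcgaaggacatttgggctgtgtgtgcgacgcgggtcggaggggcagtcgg
DUSP8: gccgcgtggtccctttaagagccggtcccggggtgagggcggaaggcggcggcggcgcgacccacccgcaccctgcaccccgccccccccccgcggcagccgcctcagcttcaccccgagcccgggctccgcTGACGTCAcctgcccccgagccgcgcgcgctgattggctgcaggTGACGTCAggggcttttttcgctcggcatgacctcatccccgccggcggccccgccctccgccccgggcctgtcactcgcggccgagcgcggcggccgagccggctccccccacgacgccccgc
DUSP10: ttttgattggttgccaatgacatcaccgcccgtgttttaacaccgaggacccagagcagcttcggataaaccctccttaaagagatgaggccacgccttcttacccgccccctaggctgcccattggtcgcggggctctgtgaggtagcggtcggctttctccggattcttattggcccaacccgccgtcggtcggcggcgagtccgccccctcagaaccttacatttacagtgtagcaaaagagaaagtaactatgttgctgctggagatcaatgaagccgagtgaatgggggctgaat

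Both strands of each window were searched for 4 motifs: the palindromic CRE TGACGTCA, the AP-1 element TGANTCA, the STAT element TTCNNNGAA and the ETS element GGAAGT. The CRE occurs in 1.85% of 35116 RefSeq promoter windows of this length. It occurred in 2 of the 10 member windows, at 125 bases before the start of DUSP1 and at 118 and 74 bases before that of DUSP8. AP-1, STAT and ETS letters, held by 7.71%, 7.66% and 22.8% of all windows, were in none of the 10. The RefSeq start of DUSP1 coincides with the deposited gene start, while that of DUSP8 lies 351 bases and that of DUSP10 87 bases from it. A match describes letters in a window and not a bound site.

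DUSP1 encodes a nuclear phosphatase of p38, JNK and ERK that is induced by stress and glucocorticoids. Its gene lies on chromosome 5 from 172768090 to 172771195 (GRCh38, minus strand). The libraries labelled PTPF had 192, 166 and 185 CPM and those labelled STATF 215, 198 and 218. All 3 PTPF-labelled values lay below all STATF-labelled ones, the closest pair being 192 and 198. The means were 181 ± 13.5 and 211 ± 10.5 CPM (SD, n = 3 each), a log2 fold change of -0.22 (SE 0.060, 95% interval -0.34 to -0.09, edgeR adjusted p = 0.00905), or 1.16-fold higher in STATF-labelled libraries. The call was lost without PTPF replicate 2 (adjusted p = 0.0643), STATF replicate 1 (0.0575) or STATF replicate 3 (0.0729), in a range of 0.000376 to 0.0729 over 14 alternatives. In RNA of a mixed culture, fewer cells of a type and less RNA per cell cannot be told apart.

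DUSP4, a nuclear phosphatase with ERK and JNK among its substrates, was scarce but lower in PTPF-labelled libraries by the widest fitted margin among the 9 genes tested. Its gene lies on chromosome 8 from 29333064 to 29350668, minus strand. Counts were 26, 41 and 44 against 55, 87 and 61, or 0.789, 1.12 and 1.35 against 1.47, 2.09 and 1.63 CPM. The groups did not overlap, but PTPF replicate 3 and STATF replicate 1 were close, and their 95% exact Poisson counting intervals, 0.979 to 1.81 and 1.10 to 1.91 CPM, overlapped. Mean levels were 1.08 ± 0.281 and 1.73 ± 0.323 CPM (SD, n = 3 each), with a log2 fold change of -0.67 (SE 0.24, 95% interval -1.17 to -0.18, edgeR adjusted p = 0.0441). That is 1.60-fold higher in STATF-labelled libraries. The call just passed and was lost in DESeq2 (adjusted p = 0.123), in limma-voom (0.0564) and without PTPF replicate 1 (0.178), PTPF replicate 2 (0.0706), STATF replicate 2 (0.234) or STATF replicate 3 (0.0793), within 0.0281 to 0.234 over 14 alternatives. The filter of 50 counts in 3 libraries kept DUSP4 only through its STATF-labelled counts. Its pass there (edgeR adjusted p = 0.0368) therefore adds no separate support.

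DUSP5, a nuclear phosphatase selective for ERK, did not pass the test. It lies on chromosome 10 from 110497838 to 110511544, plus strand. It stood at 9.59, 7.74 and 8.30 CPM in PTPF-labelled and 8.74, 9.56 and 8.74 CPM in STATF-labelled libraries, and the groups overlapped. The log2 fold change was -0.08 (SE 0.10, 95% interval -0.29 to 0.13, edgeR adjusted p = 0.649). DUSP2, a nuclear phosphatase best known from activated lymphocytes, lies on chromosome 2 from 96143166 to 96145440, minus strand. Counts of DUSP2 were 15, 4 and 5 under the PTPF label and 15, 6 and 10 under the STATF label, which was too few for the expression filter. Its levels spanned 0.109 to 0.455 CPM, and a count of 0 would have allowed up to 3 counts, or 0.0720 to 0.0919 CPM. Such limits, like the counting intervals given for DUSP4, cover counting error only. The main fit did not test DUSP2. Without the filter its log2 fold change was -0.19 (edgeR adjusted p = 0.891). DUSP2 passed in none of the 6 alternatives that fitted it, with estimates from -0.49 without STATF replicate 2 to 0.19 without PTPF replicate 2. Of these, DESeq2 gave DUSP2 an estimate but no adjusted p.

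None of the 3 cytoplasmic, ERK-preferring members passed the test. DUSP6, a classical feedback inhibitor of ERK, lies on chromosome 12 from 89347232 to 89353271, minus strand. It was at 5.80, 5.48 and 7.02 CPM in PTPF-labelled and 6.05, 8.62 and 7.03 CPM in STATF-labelled libraries. The groups overlapped, and STATF replicate 2 was the highest of all 6. The log2 fold change of DUSP6 was -0.25 (SE 0.13, 95% interval -0.52 to 0.02, edgeR adjusted p = 0.191). An antisense gene, with 7 counts in all 6 libraries together, covers 40.5% of the exon bases of DUSP6. Because the strand setting is not given in the sources used here, reads of both cannot be told apart, and the DUSP6 level is uncertain.

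DUSP9, which is prominent in insulin-responsive tissues and placenta, lies on chromosome X from 153642492 to 153651326, plus strand. Its levels were 23.2, 18.7 and 23.7 CPM in PTPF-labelled and 20.05, 17.6 and 21.1 CPM in STATF-labelled libraries. Replicate 2 was the lowest of each group, and the groups overlapped. The log2 fold change was 0.16 (SE 0.088, 95% interval -0.02 to 0.34, edgeR adjusted p = 0.219). Without PTPF replicate 2 it reached 0.27 and passed (adjusted p = 0.0156), the only one of 14 alternatives in which it did, over which the adjusted p ran from 0.0156 to 0.608. DUSP7, a close relative of DUSP6, lies on chromosome 3 from 52048919 to 52056550, minus strand. It stood at 10.6, 11.1 and 9.16 CPM against 10.3, 8.52 and 9.57 CPM, overlapping, with a log2 fold change of 0.12 (SE 0.10, 95% interval -0.08 to 0.33, edgeR adjusted p = 0.441).

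Among the members that prefer JNK and p38, DUSP10 and DUSP16 had separated groups in opposite directions, and neither passed. DUSP10, which dephosphorylates p38 and JNK in nucleus and cytoplasm, lies on chromosome 1 from 221701424 to 221742176, minus strand. Values for DUSP10 were 5.04, 3.92 and 3.95 CPM in PTPF-labelled and 5.84, 5.55 and 5.21 CPM in STATF-labelled libraries, with a narrow gap between 5.04 and 5.21. Means were 4.30 ± 0.635 and 5.53 ± 0.314 CPM (SD, n = 3 each). The log2 fold change was -0.36 (SE 0.14, 95% interval -0.64 to -0.08, edgeR adjusted p = 0.0567). DUSP10 passed in 4 of 14 alternatives, among them library totals as the only scaling (adjusted p = 0.0224), the filter of 50 counts (0.0499) and leaving out PTPF replicate 1 (0.0134). The highest adjusted p over the alternatives was 0.185.

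DUSP16, a phosphatase that shuttles between nucleus and cytoplasm, lies on chromosome 12 from 12474210 to 12562383, minus strand. It was at 32.6, 35.5 and 36.5 CPM in PTPF-labelled and 31.99, 31.6 and 30.7 CPM in STATF-labelled libraries. All PTPF-labelled values were above all STATF-labelled ones, with a narrow gap between 31.99 and 32.6. The log2 fold change of DUSP16 was 0.15 (SE 0.064, 95% interval 0.02 to 0.28, edgeR adjusted p = 0.0989), and it passed without PTPF replicate 1 only (0.0236). Over 14 alternatives its adjusted p ran from 0.0236 to 0.407. DUSP8, known from brain and heart, lies on chromosome 11 from 1554044 to 1571920, minus strand. Its values of 9.22, 8.69 and 7.90 against 8.18, 8.26 and 9.19 CPM overlapped. Its log2 fold change was 0.01 (SE 0.10, 95% interval -0.20 to 0.22, edgeR adjusted p = 0.96), which allows a level from 0.872 to 1.16 times that of STATF-labelled libraries, and the sign turned with library totals as scaling (-0.05). The processed pseudogene DUSP8P5 had 23.2% to 31.4% as many counts as DUSP8, so reads of the pair may be split and the DUSP8 level is uncertain.

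**Figure D2:**
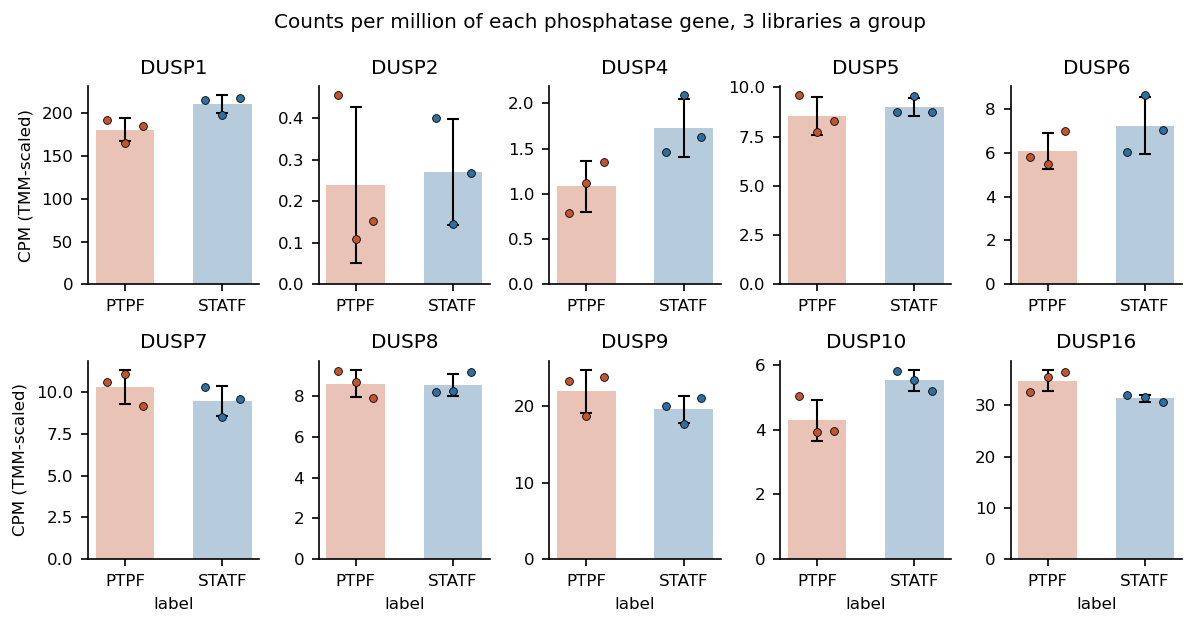
TMM-scaled CPM of each gene in the 6 libraries (points), with bars at the group mean and error bars of 1 SD (n = 3 per label); each panel has its own linear axis from 0. DUSP1, DUSP4 and DUSP10 have all PTPF-labelled points below the STATF-labelled ones, DUSP16 has them above, and the other 6 genes overlap.

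Across the family, DUSP1 and DUSP4 were the 2 of 9 tested genes with an edgeR adjusted p under 0.05, both lower in PTPF-labelled libraries. None was higher, with 0 in DESeq2 and 0 in limma-voom as well. An unadjusted p under 0.05 was reached by 4, the lower DUSP1, DUSP4 and DUSP10 and the higher DUSP16. Of all genes tested 21.6% passed, 11.6% lower and 10.1% higher in PTPF-labelled libraries, so the share of members past the threshold, 22.2%, was near that of all genes. With library totals as the only scaling the split of all calls went from 1801 higher and 2062 lower to 1164 and 2981, while the members gave 0 and 3. Groups did not overlap in 4 of the 9 members, against 35.7% of all genes. The median log2 fold change of the members was -0.08, that of all genes 0.00. The fitted direction was lower for 5 members and higher for 4. No member called in edgeR differed by 2-fold, and DUSP1 and DUSP4 differed by 1.16-fold and 1.60-fold.

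**Figure D3:**
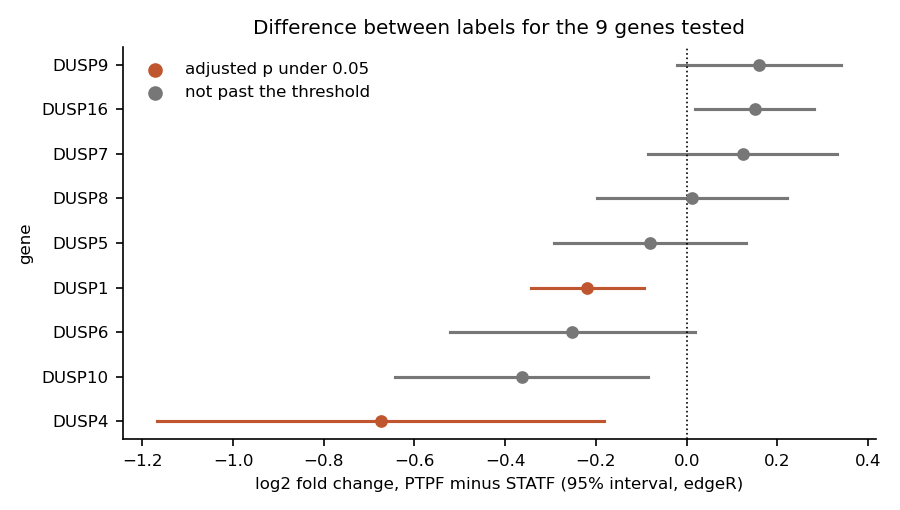
Log2 fold change (PTPF minus STATF) of the 9 genes tested, with 95% intervals from edgeR; orange marks an adjusted p under 0.05. The estimates run from -0.67 for DUSP4 to 0.16 for DUSP9, and the interval of DUSP4 is the widest.

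The labels give hepatocytes as the cell type, and all 10 hepatocyte markers were detected. Their summed level was 42078 to 48795 CPM in PTPF-labelled and 39920 to 40800 CPM in STATF-labelled libraries, but the order turned without SERPINA1, the most abundant (20051 to 22748 against 25535 to 26792 CPM). In edgeR 2 of the 10 were higher and 5 lower, among them TAT, the least abundant. For 8 endothelial or immune markers the sums were 48.6 to 54.1 against 64.8 to 69.3 CPM. KDR, the most abundant of them, was lower (35.8 ± 3.36 against 57.6 ± 2.23 CPM) and CD14 higher (14.2 ± 1.62 against 8.14 ± 0.604 CPM, SD, n = 3 each), the 2 called of 3 tested. CD3E was at 0 in every library, and CDH5 and PTPRC were at or under 3 counts. Sums of 8 biliary or progenitor markers overlapped (302 to 337 against 290 to 308 CPM), while their members went both ways. CD24, the most abundant, was higher (185 ± 12.8 against 121 ± 2.41 CPM), and KRT19 (75.7 ± 6.40 against 113 ± 10.3 CPM) and SOX9 (15.1 ± 0.610 against 20.03 ± 1.22 CPM) were lower (SD, n = 3 each), with EPCAM at 0 and CFTR at or under 3 counts. Sums of 8 mesenchymal markers overlapped too (52.2 to 68.8 against 54.1 to 72.4 CPM). Of these, DCN, the most abundant, stood at 31.6 ± 9.92 against 24.4 ± 9.44 CPM without passing, ACTA2 was lower (20.6 ± 1.60 against 26.2 ± 0.965 CPM, SD, n = 3 each), and COL1A2 was at or under 3 counts. Without KDR the order of the endothelial or immune sums turned (13.6 to 16.4 against 8.90 to 10.4 CPM). Without CD24 the biliary sums separated, lower in PTPF-labelled libraries (125 to 137 against 169 to 185 CPM). Without DCN so did the mesenchymal sums (30.9 to 32.1 against 38.2 to 39.5 CPM). CD14, KRT19, SOX9 and ACTA2 were named after their values were seen. Mitochondrial transcripts took 17.6% to 18.5% of counts in PTPF-labelled and 18.7% to 19.5% in STATF-labelled libraries. The part of these differences in the values of the phosphatase genes was not tested.

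Ratios of members within a library do not depend on the scaling between libraries, and 5 were computed, chosen after the values were seen. DUSP1 had 5.89, 4.68 and 5.06 counts per count of DUSP16 under the PTPF label and 6.73, 6.28 and 7.10 under the STATF label. Relative to DUSP9 it had 8.27, 8.86 and 7.78 against 10.7, 11.2 and 10.3. Both ratios were lower in every library labelled PTPF, by a log2 difference of -0.37 and -0.38. The ratios of DUSP10 to DUSP16 (-0.52), DUSP4 to DUSP16 (-0.84) and DUSP6 to DUSP9 (-0.40) were also lower without overlap. Each had a two-sided exact permutation p of 0.1, the minimum possible with 3 libraries a side, and 0.1 after Benjamini-Hochberg adjustment over the 5. A test of this size cannot pass 0.05, and the common direction of the 5 ratios follows from how the pairs were chosen. Each numerator was fitted lower and each denominator higher in PTPF-labelled libraries, so the 5 ratios restate those fits.

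**Figure D4:**
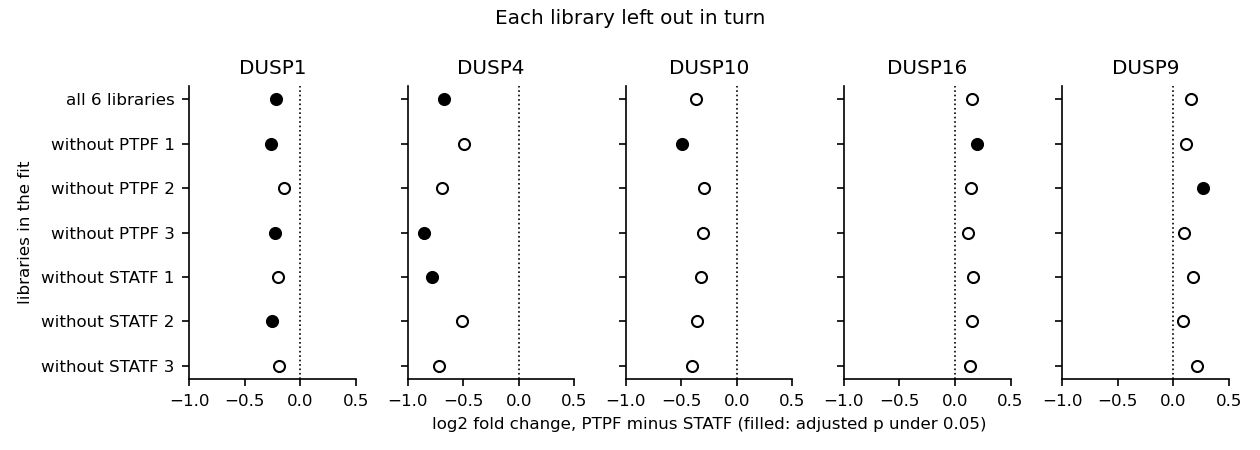
Log2 fold change (PTPF minus STATF) of 5 genes with all 6 libraries and with each library left out; filled points have an edgeR adjusted p under 0.05. All points of DUSP1, DUSP4 and DUSP10 stay below 0 and all of DUSP16 and DUSP9 above 0, while DUSP1 is filled in 3 and DUSP4 in 2 of the 6 fits with a library left out.

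The 17 genes listed as atypical dual-specificity phosphatases, mostly smaller proteins without the kinase-binding domain of the family, gave 12 genes tested. In edgeR 1 of these was higher and none was lower (0 in DESeq2 and 0 in limma-voom, 2 at an unadjusted p under 0.05), and their median was 0.09 on the log2 scale. With library totals as scaling 1 was lower. The higher gene was DUSP23, at 121, 101 and 124 CPM in PTPF-labelled and 65.8, 66.2 and 70.5 CPM in STATF-labelled libraries. Its log2 fold change was 0.77 (SE 0.066, edgeR adjusted p = 1.59e-09), a larger estimate than that of any of the 9 MAP kinase phosphatases tested, although the difference between genes was not tested. Among 8 tested of 10 other phosphatases that act on MAP kinases, 1 was higher and 2 were lower, with a median of 0.00. PTPRR, a tyrosine phosphatase that binds ERK and p38, had 36, 25 and 24 counts against 99, 92 and 102 (log2 fold change -1.59). PPP2R1B (0.57) and PPP2CB (-0.27), a scaffold and a catalytic subunit of protein phosphatase 2A, went opposite ways.

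The list of MAP kinases, on which the family acts, had 3 genes higher and 1 lower of 13, and its median log2 fold change was 0.07. With library totals as scaling the list had 2 higher and 3 lower. Of 4 p38 genes, MAPK11 (0.31) and MAPK12 (0.29) were higher, while MAPK14, the most abundant (75.1 ± 0.849 against 69.3 ± 1.13 CPM, SD, n = 3 each, 0.12), and MAPK13 (-0.03) did not pass, and 29.3% of the exon bases of MAPK12 are shared with a neighbouring gene. MAPK10, a JNK mainly of neurons, was lower (-0.93) on 14 to 49 counts per library, its groups overlapped in CPM, and the call was lost without STATF replicate 1 or 2 and in limma-voom. The filter of 50 counts in 3 libraries removed MAPK10 before testing. MAPK6 (0.16), the remaining call, MAPK13 and MAPK14 were named after their values were seen. Upstream kinases had 4 higher and 4 lower of 29, with a median of -0.03, but 3 higher and 8 lower with library totals as scaling. MAP3K5 (ASK1), a stress kinase, stood at 51.4 ± 0.494 against 27.5 ± 2.25 CPM, and MAP3K8 (TPL2), which activates ERK downstream of inflammatory receptors, at 25.2 ± 0.212 against 13.002 ± 0.609 (SD, n = 3 each). MAP3K14 (NIK) was lower, at 16.4 ± 0.440 against 25.9 ± 1.08 CPM (SD, n = 3 each), with 12.3% of its exon bases shared with an antisense gene.

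Growth factor receptors, adaptors and RAS genes had 2 higher and 4 lower of 23, with a median of -0.05, and 2 higher and 7 lower with library totals. The adaptor SHC1 stood at 564 ± 48.2 against 333 ± 29.7 CPM, the exchange factor SOS1 at 75.6 ± 4.45 against 58.6 ± 3.13 and the hepatocyte growth factor receptor MET at 150 ± 7.48 against 199 ± 4.82 (SD, n = 3 each). Of 11 ligand genes tested of 13 listed, edgeR found 5 lower and none higher (0 in DESeq2 and 0 in limma-voom, 1 at an unadjusted p under 0.05), and the median was -0.20. They included the EGF receptor ligands TGFA (18.1 ± 0.539 against 26.2 ± 0.911 CPM), EGF (11.3 ± 1.06 against 15.8 ± 0.214) and BTC (5.96 ± 0.322 against 7.99 ± 0.718) (SD, n = 3 each). Without PTPF replicate 3 or without STATF replicate 3 the number of lower ligands was 3, and without PTPF replicate 2 or STATF replicate 2 there was 1 higher ligand. Other feedback inhibitors of the RAS and ERK route had 3 lower and none higher of 12 tested in edgeR, with a median of -0.16. DESeq2 and limma-voom each had 1 higher, library totals gave 5 lower, and 2 were higher at an unadjusted p under 0.05. PEA15, which holds ERK in the cytoplasm, stood at 79.7 ± 3.69 against 113 ± 8.61 CPM, and the membrane inhibitors SPRED2 (-0.46) and SPRED1 (-0.27) were also lower (SD, n = 3 each for PEA15).

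Of 26 tested genes downstream of ERK 5 were higher and 9 lower, or 53.8%, beside 21.6% of all genes. Scaling by library totals gave 3 higher and 12 lower. This list and the others were chosen with earlier results of these data known, and none was tested as a whole. The median log2 fold change of the 26 genes was -0.18. EGR1, an immediate early transcription factor, stood at 28.7, 30.7 and 31.8 CPM in PTPF-labelled and 60.8, 62.0 and 61.5 CPM in STATF-labelled libraries. The cell cycle gene CCND1 had 28.6, 34.0 and 34.0 against 70.0, 66.4 and 71.6 CPM, and KLF6 had 50.3, 54.9 and 52.1 against 87.4, 84.0 and 86.3. Each of the 3 was lower in every PTPF-labelled library, with log2 fold changes of -1.01, -1.11 and -0.71 (edgeR adjusted p = 5.56e-13, 7.08e-13 and 1.77e-10). EPHA2 (-0.62) and FOS (-0.59) were also lower and JUNB (0.59) and MYC (0.50) higher, named after their values were seen. Exon bases are shared with other genes for 10.3% of CCND1, 15.2% of SHC1 and 14.2% of JUNB. All 8 lists together had 16 higher and 28 lower of 134 genes tested, or 32.8%, and 12 higher and 44 lower with library totals as scaling.

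**Figure D5:**
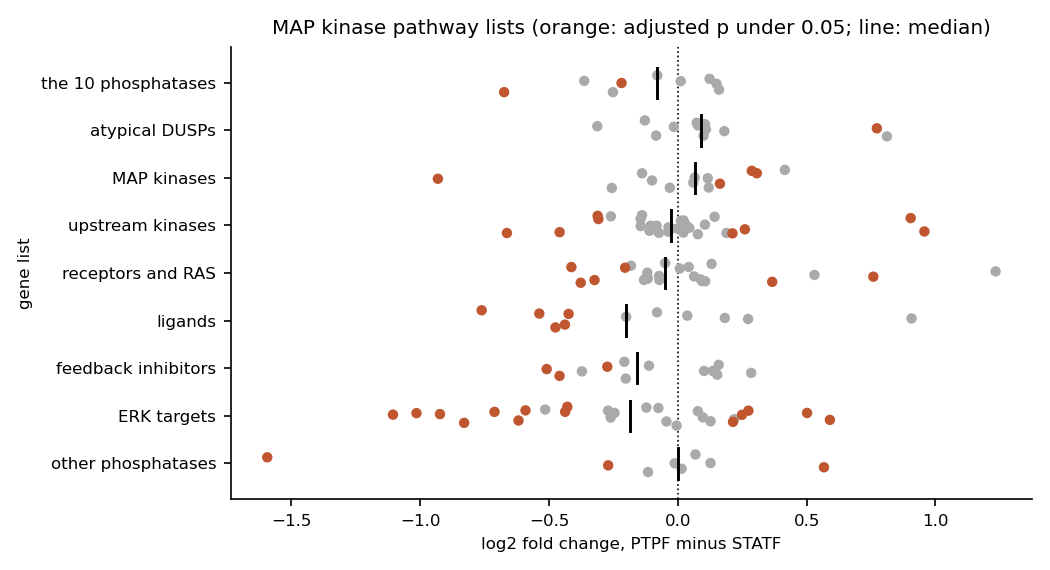
Log2 fold change (PTPF minus STATF) of every tested gene of the family and of 8 other lists of the MAP kinase pathway; orange marks an edgeR adjusted p under 0.05 and black lines the list medians, and points are spread vertically for legibility only. The family spans -0.67 to 0.16, while the ERK targets span -1.11 to 0.59.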

How the data were processed

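Poly(A) RNA of 6 HepaRG libraries was sequenced, 3 titled PTPF and 3 STATF. The submitters' processing notes list HISAT2 2.0.5, CASAVA 1.8 and featureCounts 1.5.0-p3, and the build GRCh38. No source used here gives the strand setting, the annotation release or the handling of multi-mapping reads. The deposited table holds the authors' raw gene counts and a gene length in bases (an other unit), which for all 10 members equals the exon union in GENCODE 29. Promoter windows are RefSeq's (GRCh38.p14).

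After filterByExpr and TMM scaling, the quasi-likelihood test of edgeR 4.0.16 (R 4.3.3, robust, label as the only term) was run on 17844 genes. P-values were adjusted over them by Benjamini-Hochberg, with 0.05 as threshold. CPM are TMM-scaled, and TPM use the deposited gene length. Fold changes are PTPF over STATF. The fit was tested on simulated data whose planted differences were all larger than that of DUSP1, so it says nothing on a difference of that size. Permutation tests used scipy 1.17.1. Alternatives were scaling by RLE, by upper quartile or by library totals alone, either no filter or 50 counts in 3 libraries, DESeq2 1.42.0, limma-voom (limma 3.58.1), a replicate block, and leaving out each library. Same-label libraries differed beyond sampling noise, with chi-square over its degrees of freedom from 4.30 to 12.1, and each counted as 1 replicate.

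Members and lists were chosen with earlier results of these data known. The text names all members, STAT3, PTPRD, the up to 3 genes per pathway list with the smallest adjusted p, and the most and least abundant marker of each cell type. It says where another gene was picked for its values, and it also gives the markers at or near 0.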

Additional observations from a re-analysis of the deposited data

How the results depend on the processing

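Of the 9 members tested, DUSP8 was the only one whose fitted direction turned, at -0.053 with library totals (0.01 with TMM) and -0.039 to 0.068 with a library left out. The number of members lower, 2, was 1 in DESeq2 and 1 in limma-voom and 0 to 2 with a library left out, and the number higher, 0, was 0 to 1. In both tools DUSP4 was the call lost, and the cause was not tested. All genes had 1164 higher and the pathway lists 44 lower with library totals as scaling, which leaves out factors that were lower in PTPF-labelled (0.953 to 0.999) than in STATF-labelled libraries (1.02 to 1.03). DUSP1's share of the summed level of the family was 67.3% without length correction, by construction. STAT3 was higher in every alternative (1.85 to 1.97 with a library left out). PTPRD stayed uncalled on either side of 0: -0.061 with library totals, -0.0058 without a filter, -4.84e-05 in DESeq2, -0.0038 in limma-voom, -0.0032 with the replicate block, and -0.076 to 0.089 with a library left out, where the cause was not tested. No gene called in edgeR was called in the opposite direction by an alternative.

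The replicate numbers do not settle whether the libraries were paired. Libraries with the same number deviated together with r = 0.084, 0.14 and -0.014 over 14268 genes. The same-number pairs of replicates 1 and 2 had the highest r of all pairs. Both libraries numbered 3 correlated better with a library of another number. With the replicate block 1928 genes were higher and 2217 lower, and 3 members were lower, DUSP10 (-0.37) being added. Depth limits DUSP2 (4 to 15 counts) and DUSP4 (26 to 87 counts).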

Other observations

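Processed pseudogenes of the family had few counts, apart from DUSP8P5 with 76, 74 and 81 counts under the PTPF label and 82, 90 and 84 under the STATF label. DUSP8P3 had 72 and DUSP5P1 79 counts over all 6 libraries, DUSP8P4 had 3 and DUSP5P2 had 0. DUSP12P1, named for the atypical DUSP12 and not for a member, had 0 as well. The antisense genes annotated at DUSP1 and DUSP6 had 7 counts each in all libraries together, and a gene beside DUSP4 on the same strand had 1.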
